A study of Mus musculus with 6 samples.

Results

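The endoplasmic reticulum (ER) chaperones and unfolded protein response genes were followed as a set of 10 genes: HSPA5, HSP90B1, CALR, XBP1, DNAJB9, HERPUD1, SDF2L1, PDIA4, HYOU1 and MANF. They were found by their Ensembl identifiers, each of which was paired with its symbol in the list that defined the set, and all 10 were present among the 62492 gene identifiers of the deposited table. All 10 also passed the filter on low values, among 12578 genes kept for testing. The study compared A375 cells, an established human melanoma line, after transduction with lentivirus carrying Cas9 and a guide RNA and selection with puromycin at 10 µg/mL. RNA was collected 7 days after selection from cells with YAE1 guides (2 libraries), cells with ABCE1 guides (2 libraries) and cells with control guides against LacZ or Luciferase (2 libraries), so the controls also carried Cas9, lentivirus and puromycin selection. ABCE1 is an ATPase that recycles ribosomes, and YAE1 is part of the adaptor, with LTO1, that brings ABCE1 its iron-sulfur cluster. The labels do not say whether the cells were clones or mixed populations. Nor do they say whether the 2 libraries of a group carried different guides or came from separate cultures. The p-values therefore reflect how far libraries of the same group lie apart, pooled over all groups, a spread that may be technical. Loss of ABCE1 and YAE1 and the melanocyte markers of the line were not analysed here, because no table used here pairs their symbols with the identifiers. Knockout below therefore names cells with YAE1 or ABCE1 guides, and how far each target was lost was not tested.

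Proteins that enter the ER are folded by chaperones and disulfide isomerases, and proteins that fail to fold are returned to the cytosol for degradation. When unfolded proteins accumulate, the membrane sensors IRE1, PERK and ATF6 start the unfolded protein response: IRE1 splices the XBP1 mRNA into a form that encodes an active transcription factor, ATF6 is cleaved to a transcription factor, and PERK slows translation and raises ATF4. The targets of these factors include chaperones, co-chaperones and components of ER-associated degradation. Among the chaperones, calreticulin also helps to load peptides onto MHC class I molecules.

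The values were FPKM (fragments scaled to gene model length and to library size), so levels of different genes can be set side by side. Libraries held 15713011 to 18399717.5 fragments, numbers worked out from the steps between low FPKM values. The 10 genes rested on 103.5 fragments (SDF2L1) to 29588.5 fragments (HSPA5) in a library, which gives counting errors of 9.83% and 0.581%. Changes are given as differences of log2(FPKM + 1) with their standard error (SE) and were tested with limma over all 12578 genes, with Benjamini-Hochberg adjustment and a threshold of 0.05 on the adjusted p.

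The set ran from abundant luminal chaperones such as CALR and HSPA5 down to SDF2L1 at low levels. With YAE1 guides CALR was highest at 449 ± 14.8 FPKM, followed by HSPA5 (332 ± 0.427), HSP90B1 (156 ± 12.4) and PDIA4 (69.5 ± 2.69 FPKM), and then MANF (38.6 ± 0.982), HYOU1 (37.4 ± 0.301), XBP1 (23.2 ± 1.94), HERPUD1 (15.1 ± 0.488), DNAJB9 (11.6 ± 0.566) and SDF2L1 (7.21 ± 0.45 FPKM; SD, n = 2 each). No neighbours in this order overlapped, but 2 libraries each do not settle the order of close neighbours. The closest libraries of MANF (37.9 FPKM) and HYOU1 (37.6 FPKM) differed by less than the counting error of MANF (2.6% to 2.95%). With ABCE1 guides the HSPA5 libraries (421 ± 7.29 FPKM) overlapped those of CALR (424 ± 6.37 FPKM) at the top, and the XBP1 libraries (34.4 ± 1.28 FPKM) overlapped those of MANF (34.6 ± 0.515 FPKM), above HYOU1 (30.8 ± 0.16 FPKM; SD, n = 2 each). The other neighbours did not overlap there. With control guides CALR (438 ± 0.384 FPKM) stood above HSPA5 (255 ± 0.805) and HSP90B1 (207 ± 0.705), and XBP1 (14.7 ± 0.284 FPKM) stood below HYOU1 (37.8 ± 0.373) and MANF (36.6 ± 1.49 FPKM; SD, n = 2 each), the only neighbours that overlapped. By FPKM HSPA5 ranked 72 and 69 among all identifiers with YAE1 guides, 48 and 46 with ABCE1 guides, and 102 and 104 with control guides, while CALR ranked 45 to 53 in the 6 libraries.

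**Figure D1:**
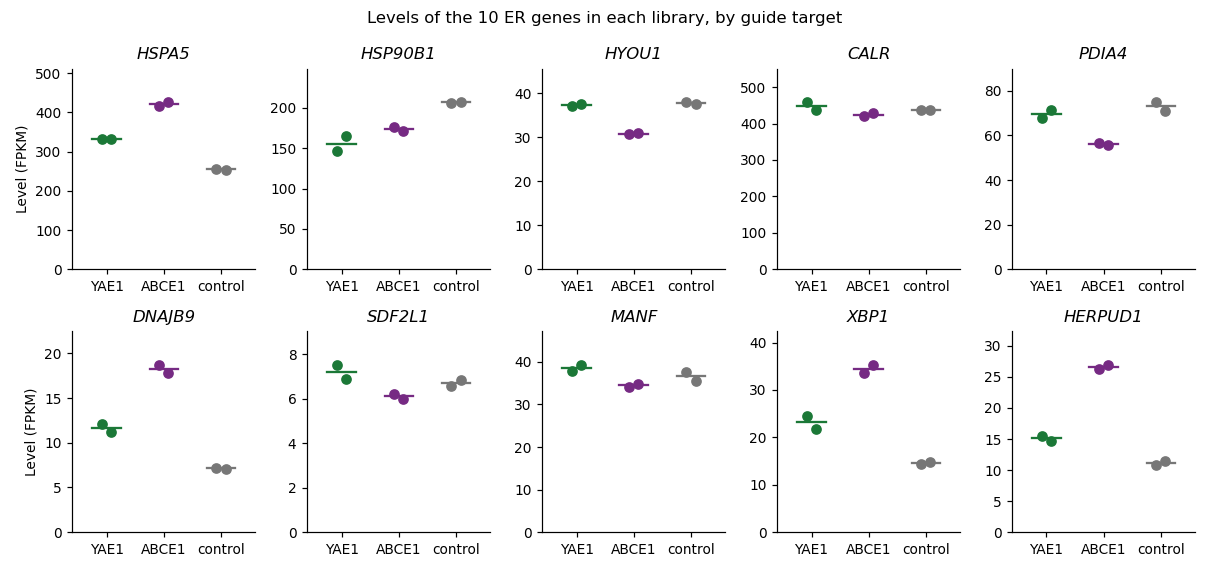
Levels of the 10 genes in FPKM on linear axes that start at 0, each with its own range. Points are libraries, lines are group means of 2 libraries with YAE1 guides, ABCE1 guides or control guides. HSPA5, DNAJB9, XBP1 and HERPUD1 share the order ABCE1 above YAE1 above control, while HSP90B1 is below the controls in all 4 knockout libraries.

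With ABCE1 guides the set split. HSPA5, XBP1, DNAJB9 and HERPUD1 rose 1.65-fold to 2.55-fold in mean FPKM, the disulfide isomerase PDIA4 and the chaperones HYOU1 and HSP90B1 fell, and CALR, SDF2L1 and MANF did not pass the test. The count was 4 higher and 3 lower of 10, while 37.5% of all genes tested were called higher and 20.4% lower, together 57.9%. The median log2 change was -0.064 over the 10 genes and 0.098 over all genes tested. The 4 that rose were also past 1.5-fold (differences of log2(FPKM + 1)), a size reached on the higher side by 13.5% of all genes. None of the 3 that fell was past it, a size reached on the lower side by 5.59% of all genes. The libraries of the 2 groups did not overlap for any of the 10, with 4 above and 6 below the controls, while 50.6% and 30.9% of all genes did not overlap in these directions. In RNA from whole cultures, a change in each cell and a change in the share of cells that express a gene cannot be told apart.

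With YAE1 guides the same 4 genes were called higher, by 1.30-fold to 1.63-fold in mean FPKM, and HSP90B1 fell. The other 5 did not pass. The count was 4 higher and 1 lower of 10, while 34.2% of all genes tested were called higher and 17.6% lower, together 51.8%. The median log2 change was 0.080 over the 10 genes and 0.096 over all genes tested. DNAJB9 and XBP1 were also past 1.5-fold higher, like 9.29% of all genes. HSP90B1 was not past 1.5-fold lower, where 4.98% of all genes were. The libraries did not overlap for 6 genes above and 1 gene below the controls, while 49.8% and 27.9% of all genes did not overlap in these directions. Both comparisons use the same 2 control libraries, so they are not independent of each other.

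**Figure D2:**
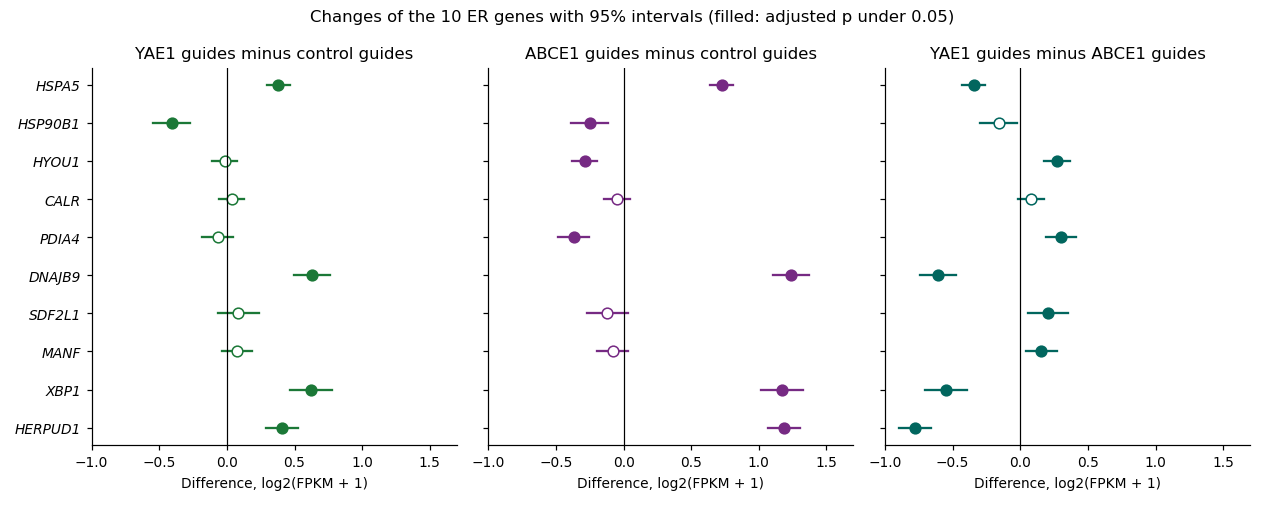
Differences of log2(FPKM + 1) for the 10 genes (points) with 95% limma intervals (lines), for YAE1 guides minus control guides, ABCE1 guides minus control guides, and YAE1 guides minus ABCE1 guides. Filled points have an adjusted p under 0.05. The changes of DNAJB9, XBP1 and HERPUD1 lie at 0.41 to 0.63 with YAE1 guides and at 1.17 to 1.24 with ABCE1 guides.

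HSPA5 (ENSG00000044574) encodes BiP, the luminal Hsp70-family chaperone that binds nascent chains and also holds the stress sensors inactive. It measured 332 and 331 FPKM with YAE1 guides, 416 and 427 FPKM with ABCE1 guides, and 255 and 254 FPKM with control guides. The 3 groups did not overlap, and the libraries within a group lay close together. The log2 change was 0.38 ± 0.04 with YAE1 guides (SE, limma adjusted p = 0.00031) and 0.72 ± 0.04 with ABCE1 guides (SE, limma adjusted p = 2.3e-05). A larger change than that of HSPA5 was found in 20.8% of genes tested with YAE1 guides and in 9.05% with ABCE1 guides.

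HSP90B1 (ENSG00000166598) encodes GRP94, the luminal Hsp90-family chaperone that folds integrins and Toll-like receptors among other clients. Its levels were 147 and 164 FPKM with YAE1 guides, 176 and 172 FPKM with ABCE1 guides, and 206 and 207 FPKM with control guides. All 4 knockout libraries lay below both controls, and the YAE1 libraries differed more from each other than those of the other groups. Its log2 change was -0.41 ± 0.06 with YAE1 guides (SE, limma adjusted p = 0.0015) and -0.25 ± 0.06 with ABCE1 guides (SE, limma adjusted p = 0.0089). Leaving out ABCE1 replicate 2 ended the call with ABCE1 guides (-0.23, limma adjusted p = 0.055), as did testing with no filter on low values (-0.25, limma adjusted p = 0.051) and testing under quantile normalization (-0.11, limma adjusted p = 0.29). HSP90B1 has processed pseudogenes, and how reads shared with them were counted is not given in the sources used here.

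HYOU1 (ENSG00000149428) encodes GRP170, a large luminal Hsp70 relative that exchanges nucleotide on BiP. It measured 37.1 and 37.6 FPKM with YAE1 guides, 30.7 and 30.9 FPKM with ABCE1 guides, and 38.0 and 37.5 FPKM with control guides. The YAE1 libraries overlapped the controls and the ABCE1 libraries lay below both. The log2 change was -0.016 with YAE1 guides (95% interval -0.11 to 0.08, limma adjusted p = 0.75) and -0.29 ± 0.04 with ABCE1 guides (SE, limma adjusted p = 0.00098).

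PDIA4 (ENSG00000155660) encodes ERp72, a protein disulfide isomerase. Its levels were 67.6 and 71.5 FPKM with YAE1 guides, 56.5 and 55.9 FPKM with ABCE1 guides, and 75.0 and 71.0 FPKM with control guides. As for HYOU1, the YAE1 libraries overlapped the controls and the ABCE1 libraries were below them. The log2 difference for PDIA4 was -0.07 with YAE1 guides (95% interval -0.18 to 0.04, limma adjusted p = 0.26) and -0.37 ± 0.05 with ABCE1 guides (SE, limma adjusted p = 0.00074). With ABCE1 guides 12.1% of genes tested changed further downward than PDIA4.

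CALR (ENSG00000179218) encodes calreticulin, a calcium-binding lectin chaperone for glycoproteins. It measured 459 and 438 FPKM with YAE1 guides, 420 and 429 FPKM with ABCE1 guides, and 438 FPKM in both control libraries. The YAE1 libraries overlapped the controls, and the ABCE1 libraries lay slightly below them. Its log2 change was 0.03 with YAE1 guides (95% interval -0.06 to 0.13, limma adjusted p = 0.50) and -0.05 with ABCE1 guides (95% interval -0.14 to 0.05, limma adjusted p = 0.36). Neither passed the test.

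DNAJB9 (ENSG00000128590) encodes ERdj4, a J-domain co-chaperone that directs BiP to clients and to the sensor IRE1. Its levels were 12.0 and 11.2 FPKM with YAE1 guides, 18.7 and 17.8 FPKM with ABCE1 guides, and 7.21 and 7.10 FPKM with control guides. The groups did not overlap. DNAJB9 rose on the log2 scale by 0.63 ± 0.06 with YAE1 guides (SE, limma adjusted p = 0.00025) and 1.24 ± 0.06 with ABCE1 guides (SE, limma adjusted p = 1.9e-05), and 8.23% and 2.53% of genes tested changed further upward in these 2 comparisons.

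SDF2L1 (ENSG00000128228) encodes a luminal protein that takes part in the BiP cycle together with another J-domain protein. It measured 7.52 and 6.89 FPKM with YAE1 guides, 6.22 and 6.01 FPKM with ABCE1 guides, and 6.59 and 6.86 FPKM with control guides. The ABCE1 libraries lay below both controls and the YAE1 libraries above both, by narrow margins, on the fewest fragments of the set. The log2 difference for SDF2L1 was 0.09 with YAE1 guides (95% interval -0.06 to 0.24, limma adjusted p = 0.28) and -0.12 with ABCE1 guides (95% interval -0.27 to 0.03, limma adjusted p = 0.14).

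MANF (ENSG00000145050) encodes a small ER-resident factor that binds BiP and can be secreted under stress. Its levels were 37.9 and 39.3 FPKM with YAE1 guides, 34.2 and 34.9 FPKM with ABCE1 guides, and 37.7 and 35.6 FPKM with control guides. The YAE1 libraries lay just above the controls and the ABCE1 libraries just below. The log2 change was 0.07 with YAE1 guides (95% interval -0.04 to 0.19, limma adjusted p = 0.23) and -0.08 with ABCE1 guides (95% interval -0.19 to 0.03, limma adjusted p = 0.18).

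XBP1 (ENSG00000100219) encodes the transcription factor of the IRE1 branch and is itself raised by the response. The table holds 1 value per gene, so spliced and unspliced XBP1 mRNA were not distinguished. XBP1 measured 24.6 and 21.8 FPKM with YAE1 guides, 33.5 and 35.3 FPKM with ABCE1 guides, and 14.5 and 14.9 FPKM with control guides. The groups did not overlap, with the ABCE1 libraries highest and the controls lowest. On the log2 scale XBP1 rose by 0.62 ± 0.06 with YAE1 guides (SE, limma adjusted p = 0.00044) and 1.17 ± 0.06 with ABCE1 guides (SE, limma adjusted p = 3.2e-05).

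HERPUD1 (ENSG00000051108) encodes Herp, an ER membrane protein of the degradation complex around the ubiquitin ligase HRD1. Its levels were 15.4 and 14.8 FPKM with YAE1 guides, 26.3 and 26.9 FPKM with ABCE1 guides, and 10.8 and 11.4 FPKM with control guides. The order of the groups was that of XBP1 and DNAJB9. On the log2 scale HERPUD1 rose by 0.41 ± 0.05 with YAE1 guides (SE, limma adjusted p = 0.0009) and 1.19 ± 0.05 with ABCE1 guides (SE, limma adjusted p = 1.6e-05). A larger change was found in 18.9% of genes tested with YAE1 guides and in 2.76% with ABCE1 guides.

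**Figure D3:**
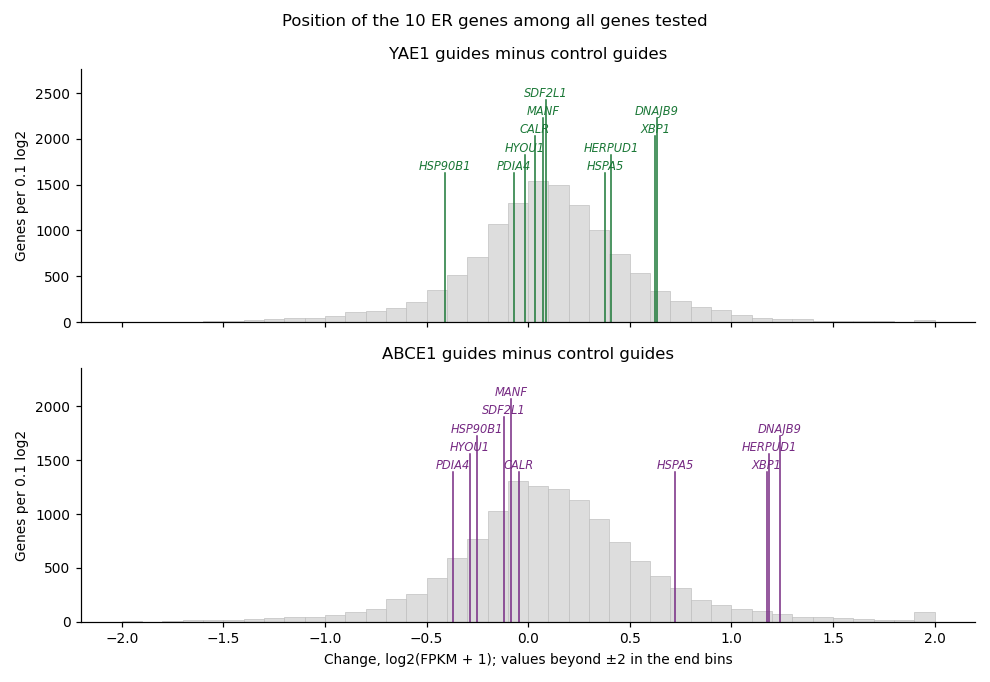
Histogram of the changes of all 12578 genes tested (bars, genes per bin of 0.1 on the log2(FPKM + 1) scale, values beyond the axis in the end bins) with the 10 genes marked by vertical lines whose heights only separate the names, for YAE1 guides (top) and ABCE1 guides (bottom) minus control guides. With ABCE1 guides XBP1, HERPUD1 and DNAJB9 lie where under 3% of genes changed further upward, and the 6 genes with negative values lie in or near the main body.

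The set's summed level was 1140 and 1137 FPKM with YAE1 guides, 1218 and 1235 FPKM with ABCE1 guides, and 1089 and 1084 FPKM with control guides. Without HSPA5 the sums were 808 and 806 FPKM with YAE1 guides, 802 and 808 FPKM with ABCE1 guides, and 834 and 830 FPKM with control guides. The summed level was therefore higher in all 4 knockout libraries with HSPA5 and lower in all 4 without it. HSPA5 made up 29.1% of the sum in both YAE1 libraries, 34.2% and 34.6% with ABCE1 guides, and 23.4% in both controls. The 10 genes held 0.428% and 0.438% of all FPKM with YAE1 guides, 0.484% and 0.491% with ABCE1 guides, and 0.431% and 0.427% with control guides. On this share the YAE1 libraries overlapped the controls, whereas the ABCE1 libraries lay above both.

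Ratios between genes of the same library do not change when its FPKM values are multiplied by 1 factor, as in rescaling by a total. They can change under quantile normalization, and under the centring used here, which was applied to log2(FPKM + 1). The pairs given here were chosen after the values were seen and are a description. Each sets a gene called higher in both knockouts over a gene that was not, so higher ratios in the knockouts follow from the choice. HSPA5 was 2.26 and 2.02 times HSP90B1 with YAE1 guides, 2.37 and 2.49 times with ABCE1 guides, and 1.24 and 1.23 times with control guides. DNAJB9 was 1.60 and 1.63 times SDF2L1 with YAE1 guides, 3.01 and 2.96 times with ABCE1 guides, and 1.09 and 1.03 times with control guides. XBP1 was 0.649 and 0.556 times MANF with YAE1 guides, 0.979 and 1.01 times with ABCE1 guides, and 0.384 and 0.418 times with control guides. In these 3 pairs the groups did not overlap, with the ABCE1 libraries highest and the controls lowest. HERPUD1 was 0.228 and 0.207 times PDIA4 with YAE1 guides, 0.465 and 0.482 times with ABCE1 guides, and 0.145 and 0.161 times with control guides, in the same order.

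**Figure D4:**
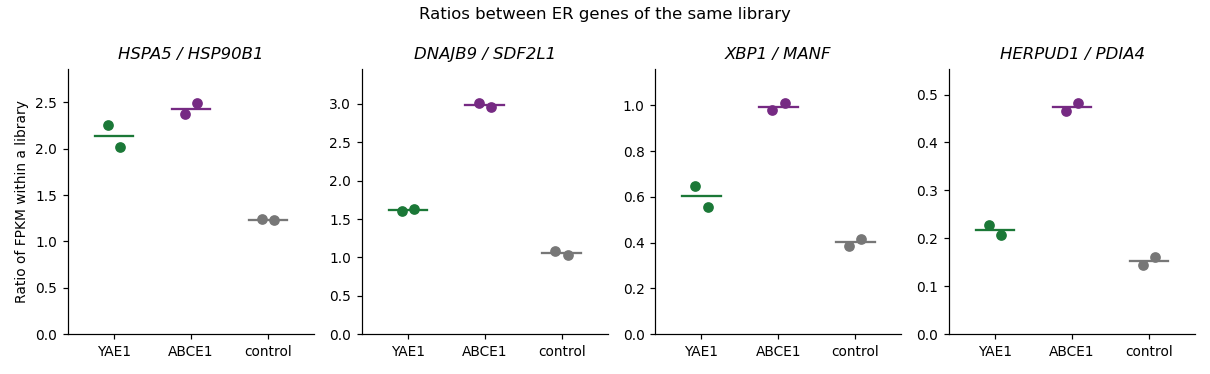
Ratio of the FPKM of 2 genes within a library, for 4 pairs, on linear axes that start at 0. Points are libraries and lines the mean of 2 libraries. The pairs were chosen after the values were seen, each with a gene called higher in both knockouts over a gene that was not. By that choice both knockout groups lie above the controls in all 4 pairs. The ABCE1 libraries are the highest, at 3.01 and 2.96 for DNAJB9 over SDF2L1 against 1.09 and 1.03 in the controls.

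Set directly against ABCE1 guides, YAE1 guides gave lower levels of the 4 genes that had risen in both knockouts. The log2 difference was -0.34 ± 0.04 for HSPA5 (SE, limma adjusted p = 0.0026), -0.55 ± 0.06 for XBP1 (SE, limma adjusted p = 0.0031), -0.61 ± 0.06 for DNAJB9 (SE, limma adjusted p = 0.0023) and -0.78 ± 0.05 for HERPUD1 (SE, limma adjusted p = 0.0013). For HERPUD1 only 1.73% of genes tested lay further in that direction, and its mean with YAE1 guides was 0.567 times that with ABCE1 guides. PDIA4 (0.30 ± 0.05, SE, limma adjusted p = 0.0062) and HYOU1 (0.27 ± 0.04, SE, limma adjusted p = 0.005), which had fallen with ABCE1 guides, were higher with YAE1 guides. SDF2L1 (0.21, limma adjusted p = 0.044) and MANF (0.16, limma adjusted p = 0.043) were also called higher, but these calls were fragile. That of MANF was lost on leaving out any 1 of the 6 libraries (limma adjusted p = 0.056 to 0.18), and that of SDF2L1 on leaving out any but YAE1 replicate 2 (limma adjusted p = 0.074 to 0.17). HSP90B1 (-0.16, 95% interval -0.29 to -0.02, limma adjusted p = 0.073) and CALR (0.08, 95% interval -0.02 to 0.18, limma adjusted p = 0.16) did not pass. HSP90B1 was called lower without YAE1 replicate 2 (-0.24, limma adjusted p = 0.009), after rescaling to TPM (-0.22, limma adjusted p = 0.037) and with voom on recovered fragments (-0.16, adjusted p = 0.025). CALR was called higher without YAE1 replicate 2 (0.11, limma adjusted p = 0.047) and lower under quantile normalization (-0.14, limma adjusted p = 0.0072). The count was 4 higher and 4 lower of 10, while 15.3% of all genes tested were called higher and 18.7% lower, together 34%. DNAJB9 and HERPUD1 were past 1.5-fold lower, like 3.3% of all genes, and none of the 10 was past 1.5-fold higher, where 1.18% of all genes were. For each of the 10 the 2 knockouts did not overlap, 5 with YAE1 above and 5 with YAE1 below, while 33.4% and 36.8% of all genes did not overlap in these directions.

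The scale of the libraries moved large and small changes. When each library was centred on its median gene, the median change of all genes moved by -0.097 with YAE1 guides and by -0.139 with ABCE1 guides, and the share of called genes that were higher went with it (49.1% instead of 66.0% with YAE1 guides, 45.5% instead of 64.8% with ABCE1 guides, and 56.0% instead of 45.1% for YAE1 against ABCE1 guides). With quantile normalization these shares were 52.2%, 49.0% and 54.0%, and with rescaling to TPM 58.8%, 65.6% and 31.3%. Relative to the median gene, HSPA5 still rose by 0.28 with YAE1 guides and 0.59 with ABCE1 guides, and XBP1, DNAJB9 and HERPUD1 by 0.31 to 0.53 and by 1.03 to 1.10. With ABCE1 guides HSP90B1 was then at -0.39, HYOU1 at -0.42 and PDIA4 at -0.51, and CALR (-0.18, limma adjusted p = 0.013), SDF2L1 (-0.26, limma adjusted p = 0.014) and MANF (-0.22, limma adjusted p = 0.0069) were also called lower. With YAE1 guides PDIA4 was then called lower (-0.17, limma adjusted p = 0.025). CALR with ABCE1 guides was instead called higher under quantile normalization (0.08, limma adjusted p = 0.021), so its direction depends on the scaling. HSPA5 was at 0.94 with ABCE1 guides under quantile normalization instead of 0.72, and at -0.54 instead of -0.34 for YAE1 against ABCE1 guides. SDF2L1 with ABCE1 guides was called lower under quantile normalization too (-0.25, limma adjusted p = 0.015).

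**Figure D5:**
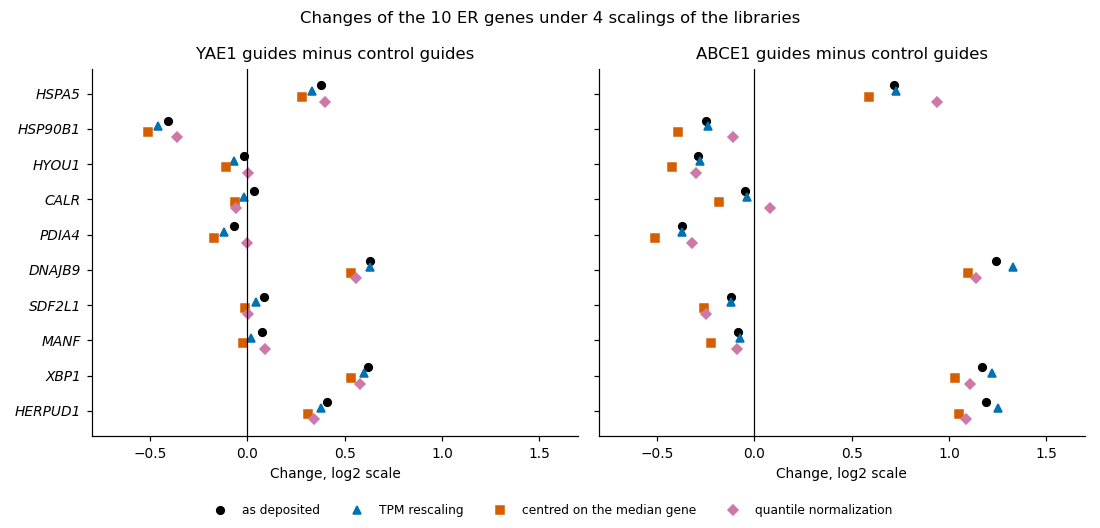
Changes of the 10 genes on the log2 scale against control guides, for YAE1 guides and ABCE1 guides, under the deposited scale and 3 other scalings of the libraries (symbols). HSPA5, DNAJB9, XBP1 and HERPUD1 stay above 0 and HSP90B1 stays below 0 under all 4, while CALR crosses 0 in both panels.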

How the data were processed

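Whole RNA from 6 libraries (1 µg each, strand-specific, 150 bp pairs) was measured. The authors deposited 1 table of FPKM values, whose unit is given per the file headers and name. The build is GRCh37 per the submitters' processing notes; aligner, counting program and annotation: not given in the sources used here. Although the organism label reads mouse, the cell type label and the identifiers are human, so the mouse reference tables matched 0 identifiers and no sequence, position or further gene name was used. Titles gave the groups, since 2 genotype labels (those of ABCE1 replicate 2 and YAE1 replicate 2) name Abce2 and Yae2.

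Fragment numbers were worked out as multiples of 0.5 fragments (tolerance 2e-05 steps) for all 38269 genes above 0, and made up at least 99.4% of the totals. The filter was a mean of 1 FPKM or more. The test was limma 3.58.1 (R 4.3.3) applied to log2(FPKM + 1), with all 6 libraries in 1 fit (3 residual degrees of freedom, 3.6 added by moderation), eBayes with a trend and Benjamini-Hochberg adjustment. Such changes understate those of low genes. With 2 libraries a group, an exact permutation test cannot reach 0.05 and was not used. The fit and the recovery were run on simulated data. The simulation for the fit gave all groups the same spread and changed only genes with many fragments. It therefore does not show how the test behaves on these libraries. Counting errors cover counting only. Libraries of a group differed by more than sampling noise (median chi-square 1.83 to 3.06 times that of counting alone). All 10 genes are named whatever their change. The genes and lists were chosen with earlier results of these data known. Alternatives changed the pseudocount, filter, scaling, unit, libraries, trend and replicate block.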

Additional observations from a re-analysis of the deposited data

Results flagged for a closer look

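The changes with YAE1 guides and with ABCE1 guides differed for 8 of the 10 genes by the direct test between the knockouts (limma adjusted p under 0.05), in which 34% of all genes tested were called. HSPA5, XBP1, DNAJB9 and HERPUD1 rose less with YAE1 guides (log2 differences of -0.34, -0.55, -0.61 and -0.78). PDIA4 and HYOU1 were higher with YAE1 guides than with ABCE1 guides (0.30 and 0.27). SDF2L1 and MANF were higher too (0.21 and 0.16), with calls that were lost in 12 and 13 of 17 alternatives.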

How the results depend on the processing

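The calls of HSPA5, XBP1, DNAJB9 and HERPUD1 in all 3 comparisons, of HSP90B1 with YAE1 guides, and of PDIA4 and HYOU1 with ABCE1 guides and between the knockouts held under all 17 alternatives. No gene called on the deposited scale changed direction under any of them. Over 30 gene and comparison pairs and 17 alternatives, 465 of 510 values kept direction and call, 28 lost the call, 9 gained it and 8, none called on the deposited scale, changed sign. Centring on the median gene gave 6 genes lower with ABCE1 guides and 2 with YAE1 guides. For YAE1 against ABCE1 guides, 2 genes instead of 4 were called higher with no filter and with rescaling to TPM. The same held for a total without the 20 most abundant genes, voom on recovered fragments, no trend and only the 4 libraries compared. The replicate block also gave 2, since SDF2L1 and MANF lost their calls. Same-numbered libraries share only a number (correlations of their deviations -0.053 to -0.009). On leaving out 1 library SDF2L1 was at 0.15 to 0.26 and MANF at 0.13 to 0.18, with the fragile calls described above. The changed signs with YAE1 guides were CALR at -0.063 (centring), -0.057 (quantile normalization) and -0.02 (TPM), SDF2L1 at -0.011 and MANF at -0.024 (centring) and HYOU1 at 0.00052 (quantile normalization). Under quantile normalization CALR was at 0.083 with ABCE1 guides and -0.14 for YAE1 against ABCE1 guides (both called), and HSPA5 there at -0.54 against -0.34. The cause was not tested. Depth limits SDF2L1 most. A library left alone in its group was assumed to vary like the other groups.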

Other observations

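Ratios of 3 further pairs of the set are given as values. XBP1 was 2.04 and 1.94 times DNAJB9 with YAE1 guides, 1.79 and 1.99 times with ABCE1 guides, and 2.01 and 2.10 times with control guides, so these groups overlapped in part. XBP1 was 1.59 and 1.48 times HERPUD1 with YAE1 guides, 1.27 and 1.31 times with ABCE1 guides, and 1.34 and 1.30 times with control guides. This ratio was above both other groups in the YAE1 libraries. HSP90B1 was 2.17 and 2.30 times PDIA4 with YAE1 guides, 3.11 and 3.07 times with ABCE1 guides, and 2.75 and 2.92 times with control guides, so the 2 knockouts lay on opposite sides of the controls. These pairs were chosen after the values were seen and were not tested.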
